A study of Homo sapiens with 16 samples.

Results

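Cells that copy their DNA switch on a shared set of genes at the G1/S transition, and 57 of them were followed here in HepG2, an established human liver cancer cell line, after knockdown of HCF-1. The 57 genes were the rows of the deposited normalized count table whose gene symbol was in a fixed list of licensing, helicase, polymerase, clamp, nucleotide and G1/S genes. All 57 were found among the 56969 genes of the table, and all 57 passed the filter on low values (a mean of at least 10 over all libraries) that left 16081 genes to test. Knockdown of HCF-1, a transcriptional cofactor on chromatin that the HCFC1 gene encodes, was done in 8 cultures with an siRNA, and the other 8 cultures received a control siRNA. The labels name both groups as biological replicates of the same cell line, transfected on 2 occasions before RNA was taken, so nothing but the siRNA was labelled as different between them. How many siRNAs were used, and their sequences, the labels do not say, and off-target effects cannot be told apart from loss of HCF-1.

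Replication starts when the origin recognition complex marks an origin and CDC6 and CDT1 load the ring-shaped MCM helicase around the DNA, a step called licensing. Kinases of S phase then turn the ring into an active helicase by adding CDC45 and the GINS complex, together known as CMG. Primase and polymerase alpha start each strand, polymerases delta and epsilon extend it on the PCNA clamp, and other enzymes join the short lagging strand pieces known as Okazaki fragments. Many of these genes are known targets of E2F factors, and HCF-1 is known to bind E2F proteins and to take part in G1/S progression.

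HCFC1 (ENSG00000172534), the targeted gene, averaged 3682 ± 339.6 normalized counts in HCF-1 siRNA libraries and 5631 ± 671 in control siRNA libraries (SD, n = 8 each), which is 65.4% of the control mean. Its values ran from 3112 to 4171 with HCF-1 siRNA and from 4851 to 6878 with control siRNA, so the groups were fully apart. HCFC1 thus had a log2 fold change of -0.61 ± 0.07 (SE; limma adjusted p = 4.52e-06; two-sided exact permutation p = 1.55e-04, the smallest that 8 against 8 can give). Totals of recovered reads were 25098840 to 43186890 in HCF-1 siRNA libraries and 21030830 to 32820459 in control siRNA libraries. Liver cell markers were high in every library, and their summed level was also higher after knockdown (867300 to 1036100 normalized counts with HCF-1 siRNA, 731010 to 796690 with control siRNA, with 7 of 10 called higher and 1 lower). Sums of markers of other cell types overlapped between the groups. Blood cell markers summed to 28901 to 35107 with HCF-1 siRNA and 27933 to 32653 with control siRNA, nearly all of it LYZ and none of the 4 tested called, while CD3E and HBB were at 0 in every library. Fibroblast markers summed to 867 to 1493 with HCF-1 siRNA and 921 to 1492 with control siRNA, and of 3 tested COL1A1 was called lower. Endothelial markers summed to 121 to 190.2 with HCF-1 siRNA and 103 to 178 with control siRNA, with none of 3 tested called and KDR and TEK at 0 in every library. The part of the higher liver marker level in the results below was not tested.

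Replication genes were called lower more often than higher after HCF-1 knockdown, by modest amounts. Of the 57 members, 24 were called lower (42.1%), 4 were called higher (7.02%) and 29 were not called (limma adjusted p at least 0.05). Across all genes tested, 18.3% were called lower and 18.2% higher. The median log2 fold change of HCF-1 siRNA over control siRNA was -0.15 over the members and 0.0064 over all genes tested. Fold changes of single members spanned -0.54 to 0.34, and 42 were negative and 15 positive. The members took 0.463% to 0.484% of the reads in HCF-1 siRNA libraries and 0.516% to 0.536% in control siRNA libraries. In bulk RNA, fewer cells in S phase and less of these RNAs per cell cannot be told apart. The members were chosen with earlier results of these data known, so these counts describe the list and carry no test of it.

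**Figure D1:**
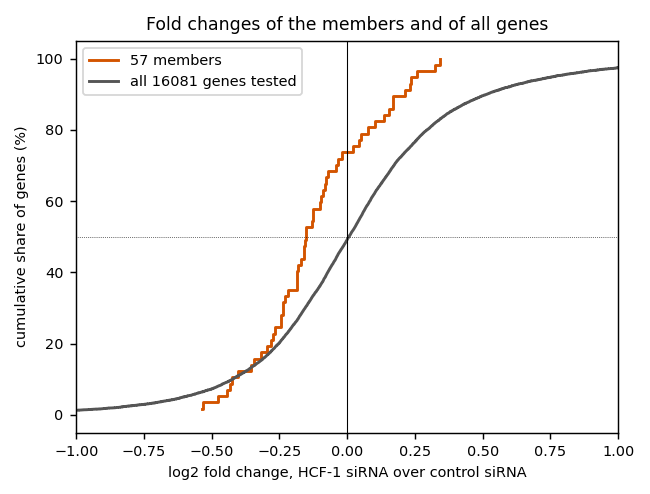
Cumulative share of genes (y axis) by log2 fold change of HCF-1 siRNA over control siRNA (x axis), for the 57 replication genes and for all 16081 genes tested. The curve of the replication genes lies left of the curve of all genes through its middle, with medians of -0.15 and 0.0064.

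Values of the 2 groups did not overlap for 10 members. In 9 of them every HCF-1 siRNA library was below every control siRNA library: GINS2, RNASEH2A, TK1, MCM5, POLD2, GINS1, RFC5, RRM2 and TYMS. ORC6 was the single member with every HCF-1 siRNA library above every control siRNA library. Among all genes tested, 5.23% did not overlap with HCF-1 siRNA lower and 4.59% with HCF-1 siRNA higher.

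**Figure D2:**
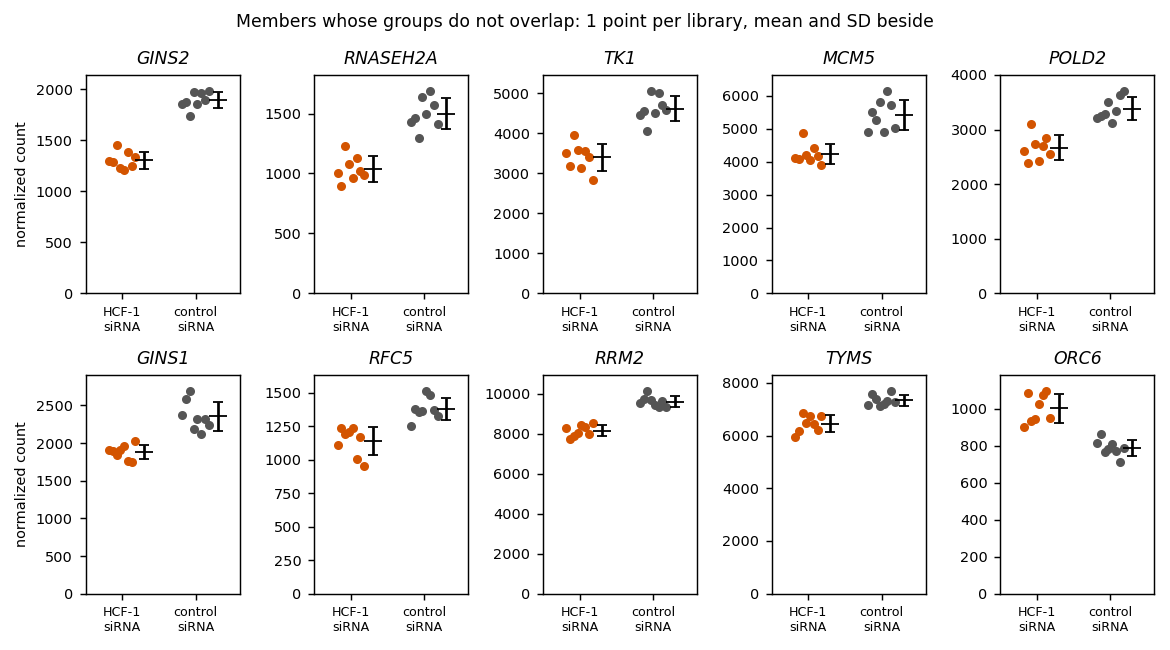
Normalized counts in each library (y axis) of the 10 members whose groups do not overlap, with HCF-1 siRNA libraries left of control siRNA libraries in each panel and the mean and SD of each group beside the points. ORC6 is the panel in which the HCF-1 siRNA libraries lie above the control siRNA libraries, and in the other 9 they lie below.

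Promoter sequence was available for 49 of the 57 members in the RefSeq table used (GRCh38.p14, 250 bases before to 50 bases after the first listed start). No entry was found for CDK2, MCM5, GINS4, RPA2, RPA3, MCM4, POLD3 and CCNE2. Among members with non-overlapping groups and a promoter entry, the 4 with the lowest fold changes and the 1 that rose are shown, since they carry the largest separated differences between the groups. Each is written from 5′ to 3′ on the gene's strand, and capitals mark motif matches on either strand: E2F (TTTCCCGC, TTTGGCGC, TTTGCCGC or TTTCGCGC), the CCAAT box (CCAAT), the shared core of ZNF143 and THAP11 (ACTACAATT) and NRF1 (GCGCATGCG). GINS2 lies at chr16:85688905-85689204, TK1 at chr17:78187155-78187454 and POLD2 at chr7:44123499-44123798, all on the minus strand. RNASEH2A lies at chr19:12806334-12806633 and ORC6 at chr16:46689409-46689708, both on the plus strand.
GINS2: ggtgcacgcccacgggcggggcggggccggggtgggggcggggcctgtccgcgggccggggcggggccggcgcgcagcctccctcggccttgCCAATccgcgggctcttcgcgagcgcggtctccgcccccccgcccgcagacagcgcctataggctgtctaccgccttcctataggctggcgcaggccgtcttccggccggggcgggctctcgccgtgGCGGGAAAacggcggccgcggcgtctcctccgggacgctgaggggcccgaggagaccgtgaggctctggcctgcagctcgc
RNASEH2A: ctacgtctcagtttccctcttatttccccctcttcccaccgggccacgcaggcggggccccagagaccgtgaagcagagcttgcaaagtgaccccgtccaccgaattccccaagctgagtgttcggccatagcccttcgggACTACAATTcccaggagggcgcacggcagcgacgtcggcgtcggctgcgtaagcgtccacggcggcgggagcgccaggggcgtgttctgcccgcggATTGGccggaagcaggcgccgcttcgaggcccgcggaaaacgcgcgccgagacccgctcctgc
TK1: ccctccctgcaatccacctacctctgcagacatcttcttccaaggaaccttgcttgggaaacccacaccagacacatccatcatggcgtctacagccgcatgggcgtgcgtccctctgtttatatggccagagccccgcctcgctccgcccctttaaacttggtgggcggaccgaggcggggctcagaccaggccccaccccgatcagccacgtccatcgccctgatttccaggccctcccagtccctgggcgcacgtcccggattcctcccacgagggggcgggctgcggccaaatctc
POLD2: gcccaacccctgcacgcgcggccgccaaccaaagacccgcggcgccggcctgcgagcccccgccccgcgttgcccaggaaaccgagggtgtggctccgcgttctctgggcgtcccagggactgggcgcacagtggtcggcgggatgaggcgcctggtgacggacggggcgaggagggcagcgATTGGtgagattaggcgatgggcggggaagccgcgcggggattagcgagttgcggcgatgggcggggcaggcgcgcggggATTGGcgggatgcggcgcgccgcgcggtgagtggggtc
ORC6: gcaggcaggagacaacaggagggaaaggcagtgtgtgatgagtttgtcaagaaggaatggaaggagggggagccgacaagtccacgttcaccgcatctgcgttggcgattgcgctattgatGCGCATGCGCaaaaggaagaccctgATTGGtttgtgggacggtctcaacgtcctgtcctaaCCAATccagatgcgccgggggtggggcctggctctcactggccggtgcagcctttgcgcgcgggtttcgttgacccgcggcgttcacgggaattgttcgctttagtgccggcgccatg

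Of these 5 windows, GINS2 alone held a match to the E2F letters, at position -31 from the start as the reverse complement of a listed motif, and it held a CCAAT box at -158. RNASEH2A held ACTACAATT at -109 and a CCAAT box on the other strand at -13. POLD2 held CCAAT boxes on the other strand at -68 and 13, and the TK1 window held no match to any motif searched. TK1 has 2 listed starts, and only the window of the first was searched. ORC6 held 2 CCAAT boxes, at -104 and -68, and GCGCATGCG at -129, where its near-palindrome also matched on the other strand at -128. Over the 49 members with a promoter, 20 (40.8%) held an E2F match, against 3.33% of all 27305 promoters of the same length. By call, that was 7 of 20 members that fell, 2 of 4 that rose and 11 of 25 not called. A CCAAT box was in 26 of 49 members (53.1%) and in 35.7% of all promoters, with 11 of 20 members that fell, 4 of 4 that rose and 11 of 25 not called. The remaining motifs were rare in the members. GCGCATGCG was found in ORC6, CDT1 and POLA2 (6.12%, against 2.10% of all promoters) and the ETS motif CCGGAAGT in GINS3, POLA1 and RFC4 (6.12%, against 4.44%). ACTACAATT was found in PRIM1 and RNASEH2A (4.08%, against 0.370%), and the cell cycle motif CHR, TTTGAA, in DBF4 and RRM1 (4.08%, against 15.4%). The YY1 motif AAGATGGCG was found in none of the 49 and in 1.85% of all promoters. For every motif, the set of all promoters was not matched to the members in GC content or gene type.

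The MCM helicase core, the ring that unwinds DNA at the fork, had 3 of 6 subunits called lower and none called higher (median log2 fold change -0.16). The share called lower was 50%, beside 18.3% of all genes tested. Values below are normalized counts, given as the lowest, median and highest of the 8 libraries of a group. MCM5 (ENSG00000100297), the subunit beside MCM2 at the gate of the ring, had 3914, 4154 and 4878 in HCF-1 siRNA libraries, against 4909, 5391 and 6158 in control siRNA libraries. These ranges did not overlap, and MCM5 fell by 0.35 ± 0.05 on the log2 scale (SE; limma adjusted p = 6.76e-05). MCM2 (ENSG00000073111), whose tail also binds histones, had 5354, 5663 and 6921 with HCF-1 siRNA, against 6404, 7263 and 7689.8 with control siRNA. The ranges of MCM2 overlapped, and it fell by 0.27 ± 0.06 on the log2 scale (limma adjusted p = 0.00113). MCM6 (ENSG00000076003) had 1676, 1813 and 2029.6 with HCF-1 siRNA, against 1995, 2181 and 2354 with control siRNA, a small overlap, and fell by 0.24 ± 0.05 (limma adjusted p = 6.79e-04). MCM3 and MCM7 were not called (log2 fold change -0.08 each, limma adjusted p = 0.0694 and 0.206), nor was MCM4 (0.05 ± 0.04, adjusted p = 0.269). MCM3 was called lower without HCF-1 siRNA replicate 3 (adjusted p = 0.0308) and without control siRNA replicate 1 (0.0468). It was also called lower with total-count scaling (0.0134), TMM scaling (0.0450) and edgeR (0.0438). MCM2 exons are overlapped over 23.6% of their length by genes on the opposite strand, TPRA1 among them, in the GENCODE 29 annotation of another build. No source used here states whether reads were counted by strand, so reads of such partners cannot be told apart.

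Origin recognition and licensing genes moved in both directions, with 2 of 9 called higher (22.2%), 1 called lower (11.1%) and 6 not called, shares near those of all genes tested (18.2% and 18.3%). ORC6 (ENSG00000091651), the smallest subunit of the origin recognition complex, had 899, 988 and 1095 normalized counts in HCF-1 siRNA libraries, against 712, 786 and 861 in control siRNA libraries. Its ranges did not overlap, and ORC6 rose by 0.34 ± 0.05 on the log2 scale (limma adjusted p = 1.18e-04), the highest fold change of the 57. CDC6 (ENSG00000094804), the loader of the MCM ring, had 2111, 2474 and 2569.7 with HCF-1 siRNA, against 1847, 2226 and 2486 with control siRNA. The ranges of CDC6 overlapped widely, and its rise of 0.17 ± 0.06 had a limma adjusted p of 0.0256. That call was lost without control siRNA replicate 7 (adjusted p = 0.0540), with no filter on low values (0.0597), with total-count scaling (0.0597), after a length and GC correction (0.149) and in the libraries of weak GC relation described below (0.159). The adjusted p of CDC6 was lower without HCF-1 siRNA replicate 7 (0.00845), the lowest of its group, or without control siRNA replicate 8 (0.00979), the highest of its group. ORC1 (ENSG00000085840), the ATPase subunit of the complex, had 918, 991 and 1082 with HCF-1 siRNA, against 1069, 1107 and 1136 with control siRNA. ORC1 fell by 0.15 ± 0.04 (limma adjusted p = 0.0114) over ranges that met at their edges, and the call was lost with no filter on low values (adjusted p = 0.0682).

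The other licensing genes were not called. CDT1, which brings the MCM ring to the origin, had a log2 fold change of -0.15 ± 0.06 (limma adjusted p = 0.0688), and it was called lower without HCF-1 siRNA replicate 3 (0.0352) or replicate 6 (0.0103) and in the libraries of weak GC relation (0.0100). It was also called lower with total-count scaling (0.0320) and with the replicate number as a block (0.0387). After the length and GC correction the fold change of CDT1 was only -0.014 (adjusted p = 0.774). GMNN, the inhibitor of CDT1, had 0.08 ± 0.05 (adjusted p = 0.245) and was called higher without HCF-1 siRNA replicate 3 (0.0295) and in the libraries of weak GC relation (0.0208), with 0.04 after the correction (0.482). ORC2 had 0.17 ± 0.07 (adjusted p = 0.0869) and was called higher without HCF-1 siRNA replicate 3 (0.0427) or control siRNA replicate 3 (0.0341) and in the libraries of weak GC relation (0.0464), while it was 0.05 after the correction (0.544). ORC3, ORC4 and ORC5 had -0.13 ± 0.07, -0.18 ± 0.09 and -0.13 ± 0.08, and all 3 were called lower after the length and GC correction (adjusted p = 0.00346, 6.27e-04 and 0.0279). In the libraries of weak GC relation they were -0.06, -0.14 and -0.05 and not called (adjusted p = 0.512, 0.210 and 0.677).

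GINS genes fell the most among the factors that activate the helicase. The GINS complex has a subunit from each of GINS1 to GINS4, and 3 of the 4 genes were called lower while the other activating factors were not called. In the whole group 3 of 8 were called lower (37.5%, beside 18.3% of all genes tested) and none higher. GINS2 (ENSG00000131153), one of the promoters printed above, had 1206, 1293 and 1451 normalized counts in HCF-1 siRNA libraries, against 1743, 1884 and 1986 in control siRNA libraries. The groups stood well apart, and GINS2 had the lowest fold change of all 57 members, -0.54 ± 0.04 (limma adjusted p = 1.49e-07), with 69.0% of the control mean. GINS1 (ENSG00000101003) had 1749, 1901 and 2031 with HCF-1 siRNA, against 2117, 2324 and 2692 with control siRNA. Its groups did not overlap either, and it fell by 0.32 ± 0.05 (limma adjusted p = 1.03e-04). GINS4 (ENSG00000147536) had 455, 643 and 696 with HCF-1 siRNA, against 643, 796 and 1009 with control siRNA. The ranges of GINS4 overlapped, and its log2 fold change was -0.42 ± 0.10 (limma adjusted p = 0.00350). Opposite-strand genes, AC009630.1 and AC009630.2, overlap 23.6% of the annotated exon length of GINS4. GINS3 did not follow the other 3 in these values: it had 668, 722 and 1313 with HCF-1 siRNA, against 559, 648 and 1328 with control siRNA (0.10 ± 0.18, adjusted p = 0.686), and the spread within each group was wide. Whether GINS3 differed from the other GINS genes in its response was not tested.

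CDC45, the third part of CMG, was not called (-0.07 ± 0.10, limma adjusted p = 0.60), nor was MCM10, an activator of the helicase (0.04 ± 0.11, adjusted p = 0.783). CDC7, the kinase that fires origins, had 231, 269 and 364 normalized counts with HCF-1 siRNA, against 159, 243 and 269 with control siRNA. At 0.32 ± 0.13 it narrowly missed the threshold (limma adjusted p = 0.0571). It was called higher when any 1 of HCF-1 siRNA replicates 2 and 3 and control siRNA replicates 2, 5 and 6 was left out (adjusted p from 0.0406 to 0.0496), and in the libraries of weak GC relation (0.0368), while it was 0.24 after the length and GC correction (0.157). CDC7 was also called higher with array weights and with DESeq2. DBF4, the activating partner of CDC7, had 0.15 ± 0.10 (adjusted p = 0.239) and was called higher in the libraries of weak GC relation (0.0111), with 0.05 after the correction (0.637).

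Among polymerase and primase genes, 3 of 10 were called lower (30%, beside 18.3% of all genes tested) and none higher. PRIM2 (ENSG00000146143), the large subunit of primase, had 568, 809.9 and 992 normalized counts in HCF-1 siRNA libraries, against 812, 1112 and 1272 in control siRNA libraries, with overlap. It fell by 0.43 ± 0.12 on the log2 scale (limma adjusted p = 0.00772). POLD2 (ENSG00000106628), an accessory subunit of polymerase delta, had 2388, 2650.0 and 3100.0 with HCF-1 siRNA, against 3125, 3313 and 3710.3 with control siRNA. The ranges of POLD2 came close but did not overlap, and the fold change was -0.34 ± 0.05 (limma adjusted p = 8.31e-05). POLA2 (ENSG00000014138), the accessory subunit of polymerase alpha, had 470.4, 549 and 636 with HCF-1 siRNA, against 583, 684 and 756 with control siRNA. POLA2 fell by 0.30 ± 0.07 (limma adjusted p = 0.00218) with overlapping ranges, and 35.1% of its annotated exon length is shared with another gene on the same strand, AP000944.2. No source used here states how reads in shared exons were assigned.

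The other 7 genes of this role were not called. POLE, the catalytic subunit of polymerase epsilon, had 2007, 2449.8 and 3179 normalized counts with HCF-1 siRNA, against 1761, 2021 and 2606 with control siRNA (0.23 ± 0.10, limma adjusted p = 0.0687), and was called higher without HCF-1 siRNA replicate 5 (0.0328), control siRNA replicate 3 (0.0292) or control siRNA replicate 4 (0.0311), while it was 0.13 after the length and GC correction (0.319). POLD1, the catalytic subunit of polymerase delta, had 1655, 2019 and 2312 with HCF-1 siRNA, against 2103, 2241 and 2594 with control siRNA (-0.18 ± 0.07, adjusted p = 0.0549). It was called lower without HCF-1 siRNA replicate 3 (0.0269), 4 (0.0428) or 6 (0.0249) and in the libraries of weak GC relation (0.0308), but was -0.080 after the correction (0.203). POLD1 was also called lower with a filter at a mean of 50, with upper-quartile, total-count or TMM scaling, and with array weights. POLA1, the catalytic subunit of polymerase alpha, had -0.13 ± 0.07 (adjusted p = 0.155) and was called lower after the length and GC correction (0.00667), but was -0.09 in the libraries of weak GC relation (0.435). PRIM1, the catalytic subunit of primase, had -0.22 ± 0.09 (adjusted p = 0.0592) and was called lower without HCF-1 siRNA replicate 4 or 8 or control siRNA replicate 6 or 7 (lowest adjusted p = 0.0325, without HCF-1 siRNA replicate 8) and after the correction (0.00551), but not in the libraries of weak GC relation (-0.16, adjusted p = 0.124). PRIM1 was also called lower with total-count scaling, array weights, edgeR and DESeq2. In the annotation, 16.2% of its exon length is shared with NACA and AC117378.1 on the same strand. POLD3, another subunit of polymerase delta, had 0.23 ± 0.11 (adjusted p = 0.110) and was called higher without HCF-1 siRNA replicate 1 (0.0349), while it was 0.14 after the correction (0.372). POLE2 (0.14 ± 0.12) and WDHD1 (-0.03 ± 0.12), which tethers polymerase alpha to the helicase, were not called.

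**Figure D3:**
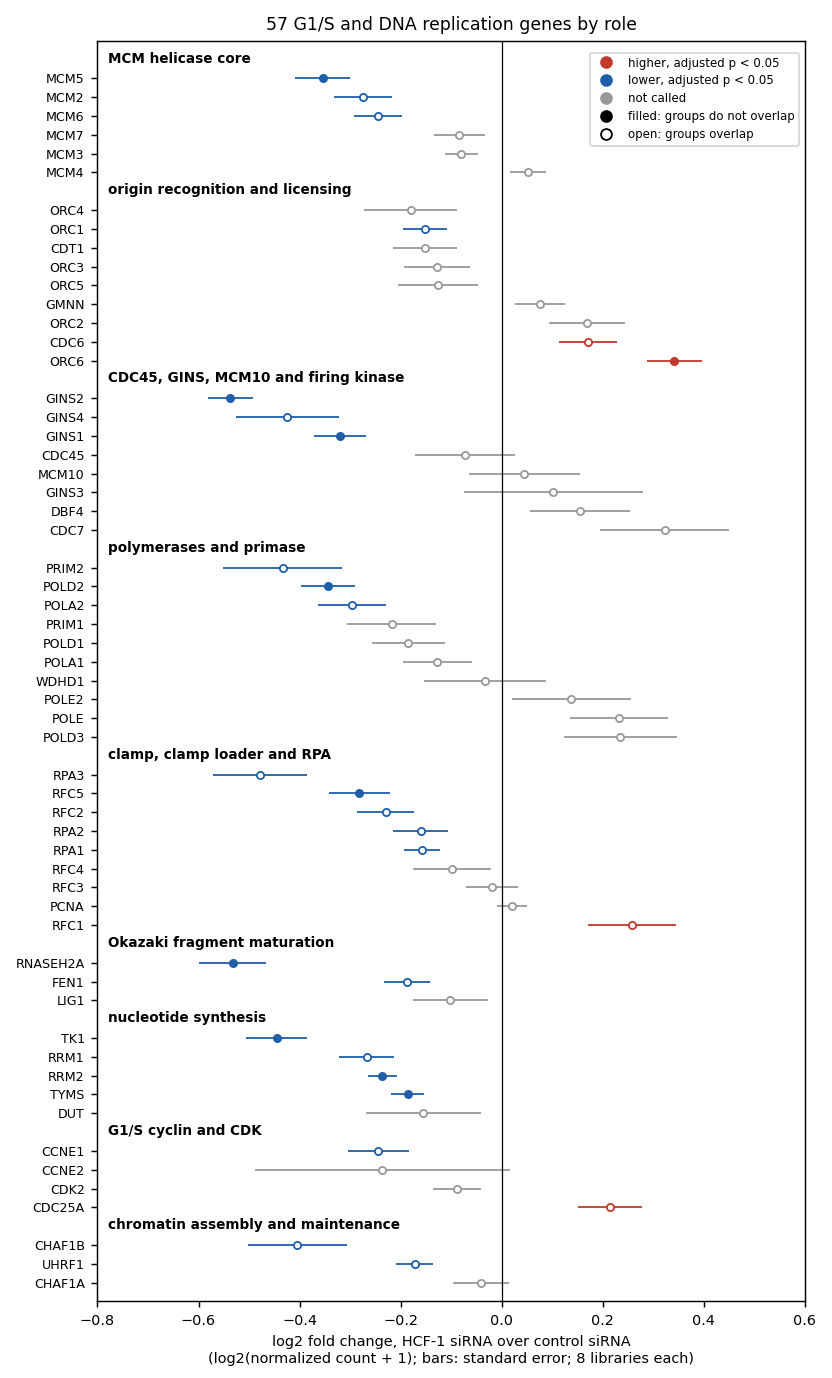
Log2 fold change of HCF-1 siRNA over control siRNA (x axis) for the 57 members, grouped by role down the page, with points at the estimate and bars of 1 standard error. Called members are coloured by direction, 24 lower and 4 higher, and filled points mark groups that do not overlap.

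Single-stranded DNA binding and clamp loading genes were called lower in 5 of 9 cases (55.6%) and higher in 1 (11.1%). The shares of all genes tested were 18.3% and 18.2%. RPA3 (ENSG00000106399), the smallest subunit of the single-stranded DNA binding complex RPA, had 569, 679 and 922 normalized counts in HCF-1 siRNA libraries, against 829, 976 and 1144 in control siRNA libraries. RPA3 fell by 0.48 ± 0.09 on the log2 scale (limma adjusted p = 6.48e-04), and its ranges overlapped. RPA1 and RPA2, the other subunits, fell by 0.16 ± 0.04 and 0.16 ± 0.06 (limma adjusted p = 0.00211 and 0.0292). The call of RPA2 was lost without HCF-1 siRNA replicate 1, 2 or 5 or control siRNA replicate 6 or 7 (adjusted p from 0.0522 to 0.0594), with no filter (0.102) and in the libraries of weak GC relation (0.0663). RFC5 (ENSG00000111445), a small subunit of the clamp loader, had 955, 1179.8 and 1235 with HCF-1 siRNA, against 1249.8, 1367 and 1514 with control siRNA. Ranges of RFC5 did not overlap, and it fell by 0.28 ± 0.06 (limma adjusted p = 0.00137), while RFC2 fell by 0.23 ± 0.06 (0.00413). RFC1 (ENSG00000035928), the large subunit, had 3146, 3914 and 4532 with HCF-1 siRNA, against 2522, 3321 and 3861 with control siRNA. RFC1 went the other way, with a rise of 0.26 ± 0.09 (limma adjusted p = 0.0262). The rise of RFC1 was not called without HCF-1 siRNA replicate 2 (adjusted p = 0.0547), HCF-1 siRNA replicate 8 (0.0542) or control siRNA replicate 7 (0.0515), or after the length and GC correction (0.117). PCNA, the sliding clamp itself, averaged 9319 ± 367 with HCF-1 siRNA and 9184 ± 271 with control siRNA (0.02 ± 0.03, adjusted p = 0.623), with overlapping groups. RFC3 and RFC4 were not called either (-0.02 ± 0.05 and -0.10 ± 0.08).

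Genes that process Okazaki fragments were called lower in 2 of 3 cases (66.7%, beside 18.3% of all genes tested). RNASEH2A (ENSG00000104889), the catalytic subunit of the RNase H2 enzyme that removes ribonucleotides from DNA, had 892, 1012 and 1229 normalized counts in HCF-1 siRNA libraries, against 1294, 1482 and 1690.3 in control siRNA libraries. Its groups did not overlap, and it fell by 0.53 ± 0.07 on the log2 scale (limma adjusted p = 9.81e-06), to 69.2% of the control mean. In the annotation, 30.8% of its exon length is shared with THSD8 on the same strand. FEN1 (ENSG00000168496), the flap endonuclease that trims fragment ends, had 2072, 2267 and 2655 with HCF-1 siRNA, against 2491, 2594 and 2764 with control siRNA, with overlap (log2 fold change -0.19 ± 0.05, limma adjusted p = 0.00395). LIG1, the ligase that seals the fragments, was not called (-0.10 ± 0.07, adjusted p = 0.30), except in the libraries of weak GC relation (lower, 0.0436).

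Nucleotide synthesis was the role with the lowest median, -0.24, and 4 of its 5 genes were called lower (80%, beside 18.3% of all genes tested). TK1 (ENSG00000167900), the thymidine kinase of the salvage route, had 2839, 3469.8 and 3955 normalized counts in HCF-1 siRNA libraries, against 4066, 4578 and 5068 in control siRNA libraries. It fell by 0.45 ± 0.06 on the log2 scale (limma adjusted p = 2.12e-05), with no overlap. RRM2 (ENSG00000171848), the S-phase subunit of ribonucleotide reductase, had 7721, 8161 and 8566 with HCF-1 siRNA, against 9323, 9620.3 and 10147 with control siRNA. RRM2 libraries were tight within each group, with no overlap between groups, and it fell by 0.24 ± 0.03 (limma adjusted p = 6.92e-06). AC007240.1, on the same strand, shares 20.2% of its annotated exon length. RRM1 (ENSG00000167325), its large partner subunit, had 3133, 3487 and 4001 with HCF-1 siRNA, against 3662, 4239 and 4542 with control siRNA (log2 fold change -0.27 ± 0.05, limma adjusted p = 8.71e-04), with overlap. TYMS (ENSG00000176890), thymidylate synthase, had 5956, 6468 and 6872 with HCF-1 siRNA, against 7123, 7281 and 7688 with control siRNA. The 2 ranges of TYMS were separate, and it fell by 0.19 ± 0.03 (limma adjusted p = 3.06e-04). Opposite-strand genes, ENOSF1 and TYMSOS, overlap 46.6% of the annotated exon length of TYMS. DUT, which removes dUTP, was not called (-0.15 ± 0.11, adjusted p = 0.307), and was called lower without HCF-1 siRNA replicate 4 (0.0416), the library with the highest value.

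The G1/S cyclin and kinase genes had 1 of 4 called lower and 1 higher, 25% each beside 18.3% and 18.2% of all genes tested. CCNE1 (ENSG00000105173), the cyclin E that drives entry into S phase with CDK2, had 693, 823 and 963 normalized counts in HCF-1 siRNA libraries, against 913, 972 and 1055 in control siRNA libraries. CCNE1 fell by 0.24 ± 0.06 on the log2 scale (limma adjusted p = 0.00429), with overlap. CDC25A (ENSG00000164045), the phosphatase that removes inhibitory phosphates from CDK2, had 1496, 1782 and 1941 with HCF-1 siRNA, against 1327, 1516 and 1642 with control siRNA. It rose by 0.21 ± 0.06 (limma adjusted p = 0.0121), also with overlap. Both calls were lost in the libraries of weak GC relation (adjusted p = 0.0614 for CCNE1 and 0.0692 for CDC25A). CDK2 (-0.09 ± 0.05, adjusted p = 0.154) and the low gene CCNE2 (-0.24 ± 0.25, adjusted p = 0.495) were not called. Opposite-strand genes, INTS8 among them, overlap 37.1% of the annotated exon length of CCNE2.

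Genes that restore chromatin behind the fork were called lower in 2 of 3 cases (66.7%, beside 18.3% of all genes tested). CHAF1B (ENSG00000159259), a subunit of the histone chaperone CAF-1, had 659, 833 and 1006 normalized counts in HCF-1 siRNA libraries, against 894, 1077 and 1362 in control siRNA libraries. CHAF1B fell by 0.40 ± 0.10 on the log2 scale (limma adjusted p = 0.00356) with overlap. UHRF1 (ENSG00000034063), which recognises hemimethylated DNA, had 3497, 3821 and 4111 with HCF-1 siRNA, against 4072, 4264 and 4654 with control siRNA. The ranges of UHRF1 touched, and it fell by 0.17 ± 0.04 (limma adjusted p = 0.00140). CHAF1A, the large subunit of CAF-1, was not called (-0.04 ± 0.06, adjusted p = 0.604).

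Levels per kilobase of merged exon, with lengths from GENCODE 29 for 56 of the 57 members, placed PCNA first, at 6335 normalized counts per kb in HCF-1 siRNA libraries and 6243 in control siRNA libraries. MCM3 followed with 3254 per kb (HCF-1 siRNA) and 3439 per kb (control siRNA), then TYMS with 2613 per kb (HCF-1 siRNA) and 2971 per kb (control siRNA), and TK1 with 1828 per kb (HCF-1 siRNA) and 2484 per kb (control siRNA). MCM7 came next at 1886 per kb with HCF-1 siRNA and 1998 per kb with control siRNA. At the low end were CDC7, with 79.1 per kb with HCF-1 siRNA and 63.5 per kb with control siRNA, and CCNE2, with 21.8 per kb with HCF-1 siRNA and 26.3 per kb with control siRNA. Members called lower were found along most of the range, from TYMS near the top to POLA2 with 95.8 per kb (HCF-1 siRNA) and 118 per kb (control siRNA). Neither PCNA and MCM3 nor any gene after POLA2 in the order of control levels was called lower. The lengths are those of all annotated exons and not of the transcripts HepG2 cells use, so the order is approximate.

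**Figure D4:**
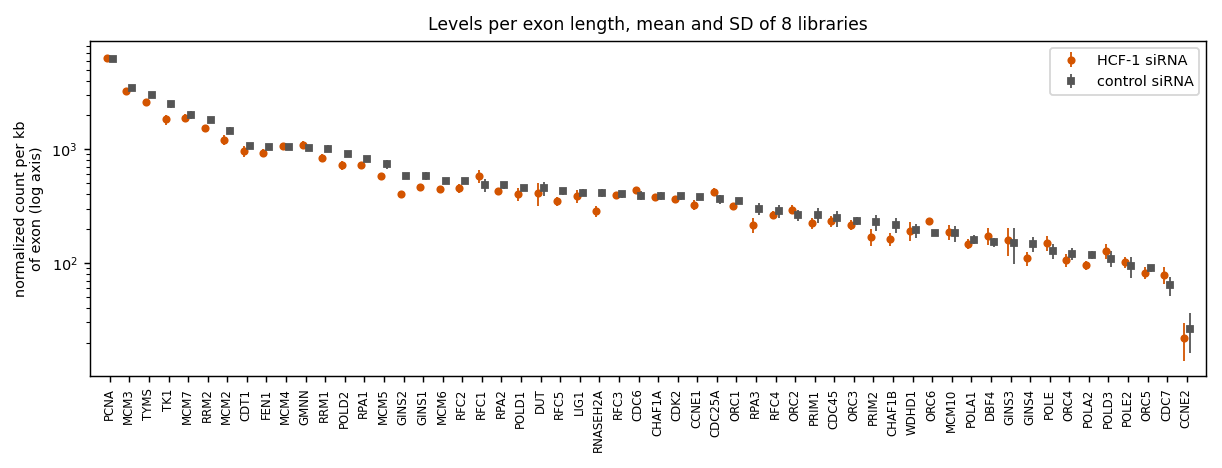
Mean normalized counts per kilobase of merged exon (log axis) in HCF-1 siRNA and control siRNA libraries for the 56 members with an annotated length, in order of the control level, with bars of 1 SD over 8 libraries. PCNA leads with 6335 per kb with HCF-1 siRNA and 6243 per kb with control siRNA, and CCNE2 is last with 21.8 per kb with HCF-1 siRNA and 26.3 per kb with control siRNA.

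Libraries differed from each other in a way that followed the GC content of transcripts. Each library's deviations of the members from the control mean gave a median of -0.18 to -0.11 (log2) in HCF-1 siRNA libraries, negative in every one. In control siRNA libraries the median was -0.03 to 0.04, near 0 by construction, since these libraries make up the control mean. Members below the control mean numbered 35 (replicate 8) to 42 in HCF-1 siRNA libraries and 25 to 35 (replicate 7) in control siRNA libraries. Deviations of each library from the mean of its own group were also set against GC content across 56 members. Their rank correlation with GC content was 0.78 in HCF-1 siRNA replicate 3, 0.59 in replicate 6, -0.42 in replicate 5 and -0.64 in replicate 8, with the rest between -0.31 and 0.05. In control siRNA libraries it was -0.54 in replicate 3, -0.50 in replicate 5, 0.40 in replicate 7, 0.39 in replicate 4 and 0.37 in replicate 6, with the rest between -0.29 and 0.08. HCF-1 siRNA replicate 3 had the lowest value of its group for 13 members and the highest for 15. Control siRNA replicate 6 had the lowest for 10 and the highest for 15, and control siRNA replicate 3 for 8 and 15. Across genes, fold changes had a rank correlation with GC content of -0.26 over 56 members and of -0.24 over 15541 genes, and with exon length of 0.19 over the members and 0.18 over all genes, over points that share the same libraries. When each library was corrected for length and GC content, 28 members were called lower and 2 higher, and the median was -0.15. This correction used deviations from the mean over both groups. It therefore also removes any difference between the groups that follows length or GC content. With only the 11 libraries whose rank correlation with GC content across all genes was at most 0.3 in size (5 HCF-1 siRNA and 6 control siRNA), 25 were called lower and 6 higher, with a median of -0.16. Both settings were chosen after seeing the data.

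**Figure D5:**
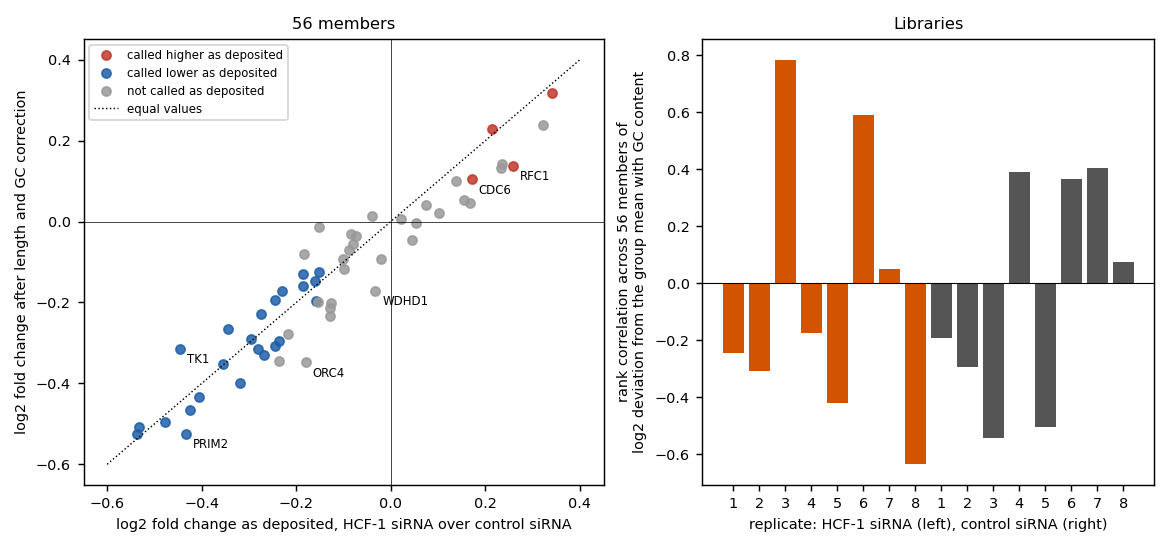
Left, log2 fold change of HCF-1 siRNA over control siRNA in 56 members as deposited (x axis) and after a length and GC correction (y axis). Right, rank correlation across members of each library's deviations from its group mean with GC content. It ran from 0.78 in HCF-1 siRNA replicate 3 to -0.64 in HCF-1 siRNA replicate 8, with HCF-1 siRNA libraries left of control siRNA libraries.

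Lists of other replication, S-phase supply, G1/S control and mitosis genes outside the 57 each had as many genes called higher as lower. Of 26 other replication factors, 6 were called higher and 6 lower (23.1% each, median log2 fold change -0.02). Across all genes tested, 18.2% were called higher and 18.3% lower. POLD4, a small subunit of polymerase delta, averaged 157 ± 23.0 normalized counts in HCF-1 siRNA libraries and 252 ± 32.7 in control siRNA libraries (-0.68 ± 0.10, limma adjusted p = 7.41e-05). RNASEH2C, a partner subunit of RNASEH2A, fell by 0.39 ± 0.07 (limma adjusted p = 5.21e-04). DNA2, a nuclease of long flaps, averaged 626 ± 149 with HCF-1 siRNA and 447 ± 55.3 with control siRNA (0.46 ± 0.13, limma adjusted p = 0.00792), a call lost in the libraries of weak GC relation (0.103). ATAD5, which unloads PCNA, rose by 0.36 ± 0.10 (limma adjusted p = 0.0110).

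Of 13 other S-phase nucleotide and histone supply genes, 2 were called higher and 2 lower (median 0.03). The histone chaperone gene ASF1B and the histone mRNA binding gene SLBP fell by 0.30 ± 0.07 and 0.16 ± 0.04 (limma adjusted p = 0.00216 and 0.00505). NASP, a histone chaperone gene, rose by 0.16 ± 0.04 (limma adjusted p = 0.00316), a call lost after the length and GC correction (0.352). CDCA7 rose by 0.14 ± 0.05 (limma adjusted p = 0.0377), a call lost in 16 of 30 alternatives. Of 21 G1/S control genes, 5 were called higher and 5 lower (median -0.09). The cyclin gene CCND3 averaged 267 ± 52.6 normalized counts with HCF-1 siRNA and 451 ± 77.1 with control siRNA (-0.76 ± 0.12, limma adjusted p = 1.36e-04). E2F2 fell by 0.49 ± 0.11 (0.00277), while E2F3 and the kinase gene CDK6 rose by 0.28 ± 0.05 and 0.40 ± 0.05 (limma adjusted p = 3.15e-04 and 8.74e-06). Of 20 mitosis genes, 5 were called higher and 5 lower (median -0.02). CENPF, a kinetochore gene, averaged 5361 ± 426 with HCF-1 siRNA and 4076 ± 555 with control siRNA (0.40 ± 0.07, limma adjusted p = 3.12e-04). The proliferation marker MKI67 and the checkpoint gene BUB1B rose by 0.32 ± 0.09 and 0.25 ± 0.05 (limma adjusted p = 0.0114 and 0.00101), and BIRC5, an inhibitor of apoptosis in the mitotic machinery, fell by 0.24 ± 0.05 (0.00233). The call of MKI67 was lost after the length and GC correction (0.0852). In each of the 4 lists the shares called higher and lower lay between 15.4% and 25%, beside 18.2% and 18.3% of all genes tested.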

How the data were processed

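Stranded libraries were made from mRNA of HepG2 cells, per the labels' protocols. The authors deposited normalized counts (a signal for each gene in each library). Per the submitters' processing notes, the tools were DESeq2 1.16.1, featureCounts 1.4.4, STAR 2.4.1d and cutadapt 1.4.2, and the genome build was hg19. Annotation release, strand setting and filters: not given in the sources used here. Since 100% of values lay within 0.001 of a whole number of reads after division by each library's smallest step, whole reads could be recovered. Libraries differed from each other by more than sampling noise. Nothing in the labels says that the 8 cultures of a group came from separate cell stocks, so p-values measure the spread between cultures.

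Groups were compared with limma 3.58.1 in R 4.3.3, with lmFit and then eBayes (trend, robust), on log2(normalized count + 1). The test covered 16081 genes whose mean over libraries was at least 10. Benjamini-Hochberg adjustment covered all of them, and calls had an adjusted p under 0.05. The pseudocount understates changes of low genes. Members and lists were chosen with earlier results of these data known. In each role, the called members with the largest changes, at most 3, got full values, and in each other list the called genes with the largest changes, at most 4, with a mean of at least 50 in a group. RFC2, RPA1, RPA2 and the members not called are named besides. Alternatives were pseudocounts of 0.5 and 10, no filter or one at 50, upper-quartile, total-count and TMM scaling, array weights, edgeR 4.0.16 and DESeq2 1.42.0 on recovered reads, reads thinned to 21030830, the replicate number as a block, each library left out, and 2 GC settings added after seeing the data. Lengths, GC content and overlaps came from GENCODE 29 by Ensembl identifier.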

Additional observations from a re-analysis of the deposited data

Results flagged for a closer look

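In each group of 8 libraries, the 57 members were searched for a lowest or highest value set far from the rest, which is 114 groups of values. In 9 of them 1 library stood apart by Dixon's criterion, where chance flags about 1 in 20. In HCF-1 siRNA libraries, MCM4 was 6725 normalized counts in replicate 5 (the others 7462 to 7713), CDC6 was 2111 in replicate 7 (2399.9 to 2569.7), and GMNN was 2243 in replicate 3 (2578 to 2867). GINS3 was 1313 in HCF-1 siRNA replicate 6 (the others 668 to 961), WDHD1 was 741 in replicate 3 (1132 to 1438), and DUT was 2261 in replicate 4 (1187 to 1625). In control siRNA libraries, PRIM1 was 858 in replicate 3 (the others 547 to 659.5), POLD1 was 2594 in replicate 6 (2103 to 2308), and CDK2 was 1723 in replicate 6 (1403 to 1549.7). Of these 9 members CDC6 alone was called, and HCF-1 siRNA replicate 3, which has the highest rank correlation with GC content, was the low library for GMNN and WDHD1; the part of GC content in these values was not tested.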

How the results depend on the processing

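Over 30 alternatives, 22 of the 28 called members kept their call wherever they had a value, 6 lost it in at least 1 (CDC6, ORC1, RFC1, RPA2, CCNE1 and CDC25A), and 16 uncalled members were called in at least 1; the cause was not tested. UHRF1 has no annotated length and so no corrected value. Members called lower numbered 22 to 28 (24 as reported), and members called higher 2 to 7 (4 as reported). With 1 library left out the higher count ran from 2 (without control siRNA replicate 7) to 7 (without HCF-1 siRNA replicate 3), and it was 2 after the length and GC correction. The members' median log2 fold change stayed between -0.18 and -0.14, with -0.18 under total-count scaling, which moved the median of all genes by -0.03, to -0.02. HCFC1 stayed between -0.64 and -0.57. All genes called numbered 5879, and 4918 to 6258 under alternatives, the lowest with 11 libraries.

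Signs turned only for members called neither way: after the length and GC correction for MCM4 (-0.0033), MCM10 (-0.045) and CHAF1A (0.014), under total-count scaling for PCNA (-0.0077), and in the libraries of weak GC relation for GINS3 (-0.16) and WDHD1 (0.050). With 1 library left out, GINS3 ran from -0.0021 to 0.22, MCM10 from -0.014 to 0.093, WDHD1 from -0.084 to 0.066 and RFC3 from -0.035 to 0.0039. Same-numbered replicates were not paired in their deviations (correlations from -0.07 to 0.10). Only HCF-1 siRNA replicate 6 and control siRNA replicate 8 were closest to the library of their own number. With the replicate block, 25 members were called lower, 4 higher, and 5484 genes in all. The smallest library had 21030830 reads, and CCNE2, the lowest member per kb, had the widest standard error, 0.25.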
